A study of Homo sapiens with 6 samples.

Results

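Protein phosphatase 2A (PP2A) is one of the main serine and threonine phosphatases of the cell, and here 10 genes for its subunits were examined among the 60671 gene identifiers counted in each sample. The genes encode the scaffold subunits (PPP2R1A and PPP2R1B), the catalytic subunits (PPP2CA and PPP2CB), the B55 regulatory subunit PPP2R2A and the 5 regulatory subunits of the B56 family (PPP2R5A to PPP2R5E). They were chosen by symbol and matched to the Ensembl identifiers of the count files, and 10 of 10 were found. The rule used symbols and no measured value, although the set was drawn up with earlier results of these data known.

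The samples were cells of EndoC-βH1, a line of human β cells labelled as wild type, treated with the vehicle DMSO (3 samples) or with 1 µM AZD7762, an inhibitor of the checkpoint kinases CHEK1 and CHEK2 (3 samples). Both groups were starved for 1 h in 0.5 mM glucose and then stimulated for 1 h in 0.5 mM or 20 mM glucose, and DMSO or AZD7762 was present in both steps. The glucose concentration of the second step is not given for each library. All samples came from 1 immortalized cell line. The methods call replicates of in vitro work independent in general but do not say how these cultures were made, so the p-values measure the spread between these samples, which may in part be technical. Polyadenylated RNA was sequenced, and the libraries held between 20486391 and 29402440 counts, with at least 608 counts of each of the 10 genes in each library. The β cell label was compared with 12 marker genes, all of which passed the filter on low counts. Passing takes few counts and does not by itself identify a cell type, since GCG and COL1A2 passed too. INS had between 1014 and 1661 CPM (counts relative to library size, scaled with TMM factors). The lowest CPM of the 12 were those of IAPP, between 17.3 and 21.1. Of the exon length of INS, 37.5% overlaps INS-IGF2 on the same strand, so the level of INS is uncertain. Of 11 markers of other cell types matched, 6 passed the filter. PRSS1 of acinar cells had 0 counts in each library, and PPY, GHRL, VWF and PTPRC stayed under 0.3 CPM. However, CPA1, also an acinar gene, had between 20.9 and 27.5 CPM, the ductal keratin KRT19 between 23.8 and 29.6, the collagens COL1A1 and COL1A2 between 10.1 and 15.8 and between 2.74 and 4.64, GCG between 1.11 and 1.95, and SST, a hormone of δ cells, between 202 and 265 CPM. SST, CPA1 and COL1A2 were higher in each AZD7762 sample than in each DMSO sample, with log2 fold changes of 0.241, 0.237 and 0.577. In edgeR their unadjusted p were 0.00237, 0.00925 and 0.00149, and after adjustment 0.16, 0.308 and 0.125. The part of other cells in the values given here was not tested.

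PP2A works as a complex of parts that can be exchanged. A scaffold subunit holds a catalytic subunit, and this core binds 1 regulatory subunit, which decides where the enzyme goes in the cell and which proteins it dephosphorylates. The regulatory subunits fall into unrelated families, namely B55, B56, the PR72 family and the striatins. B56 subunits bind short sequence motifs in their partners and are best known for work at the kinetochore and in signalling cascades, and the B55 complex acts on substrates of cyclin-dependent kinases at mitotic exit. The study places PP2A between CHEK2 and the kinase PLK1 in a pathway for insulin secretion. Its evidence was lower PP2A activity in CHEK2-deficient cells. Knockdown of PP2A also raised PLK1 phosphorylation and reduced the secretion response to AZD7762. The question here was which subunits the cells transcribe and whether AZD7762 changed their transcripts. Only RNA was measured in these libraries, not PP2A protein or activity, so they do not test that pathway. In bulk RNA, fewer cells of a kind and less RNA per cell cannot be told apart.

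The cells transcribed all 10 genes, and none passed the test for a difference between AZD7762 and DMSO. In the quasi-likelihood test of edgeR with a threshold of 0.05 on the adjusted p, 0 of the 10 were called, against 0.708% of the 17649 genes tested. At an unadjusted p under 0.05 there were also 0 of 10, against 9.68% of all genes. DESeq2's Wald test called 0 of the 10, against 162 of the 21152 genes it tested. The fitted log2 fold changes (AZD7762 against DMSO) ran from -0.04 for PPP2R5A to 0.0953 for PPP2R1A, with a median of -0.00479 beside 0.00757 over all genes tested. For 9 of the 10 the size was under the median size over all genes, 0.0906. That median also covers genes with far fewer counts than these 10, so it is not a comparison at like levels. The 95% intervals, which are per gene and not widened for 10 genes, lay between a fold of 0.873 and one of 1.17. A larger change of any 1 of these transcripts is thus outside its interval, whereas smaller changes could not be resolved with 3 samples in each group.

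**Figure D1:**
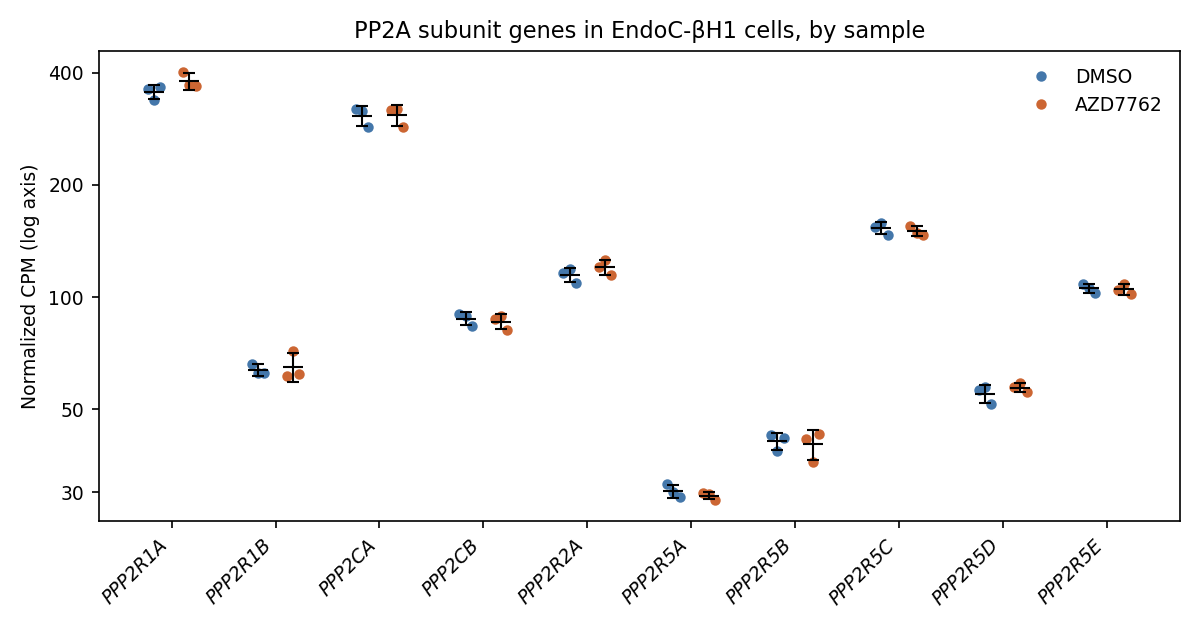
Normalized CPM (log axis) of the 10 PP2A subunit genes in each of the 3 DMSO (blue) and 3 AZD7762 (orange) samples, with the mean and SD of each group in black. The 2 groups of each gene lie at nearly the same height, from between 28.6 and 31.5 CPM for PPP2R5A to between 338 and 401 CPM for PPP2R1A.

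Of the scaffold genes, PPP2R1A encodes the main form (Aα) and PPP2R1B the second form (Aβ). PPP2R1A (ENSG00000105568, GRCh37 chromosome 19, 52674189 to 52732771) had 361, 338 and 366 CPM in DMSO replicates 1 to 3 and 401, 369 and 367 CPM in AZD7762 replicates 1 to 3. Each AZD7762 sample was higher than each DMSO sample, the nearest pair being 366 and 367 CPM. PPP2R1A was the 1 gene of the 10 whose groups did not overlap, against 15.0% of all genes tested in either direction and 6.79% in this one. Its means were 355 ± 14.8 and 379 ± 18.9 CPM (SD, n = 3 each), and the log2 fold change was 0.0953 (standard error 0.0618, 95% interval -0.039 to 0.23, adjusted p = 0.665, edgeR). The value rested partly on AZD7762 replicate 1, without which the log2 fold change was 0.0448. Of its exon length, 6.72% overlaps an unnamed gene on the opposite strand, which held 3 counts over the 6 libraries.

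PPP2R1B (ENSG00000137713, chromosome 11, 111597632 to 111637113) had 66.4, 62.5 and 62.5 CPM with DMSO and 61.4, 71.9 and 62.1 CPM with AZD7762. The groups overlapped, with both the highest and the lowest sample in the AZD7762 group, and the log2 fold change was 0.0285 (95% interval -0.127 to 0.184, adjusted p = 0.928, edgeR). It was -0.0542 without AZD7762 replicate 2, the high sample. The exons of PPP2R1B share 2.24% of their length with SIK2 on the opposite strand.

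The catalytic subunits Cα and Cβ, encoded by PPP2CA and PPP2CB, are nearly the same protein. PPP2CA (ENSG00000113575, chromosome 5, 133529726 to 133561764) had 319.9, 315 and 285 CPM with DMSO and 318, 319.7 and 285 CPM with AZD7762. Both groups held 2 samples between 315 and 319.9 CPM and 1 sample at 285 CPM, which was replicate 3 in each. The means were 307 ± 18.8 and 308 ± 19.4 CPM (SD, n = 3), the log2 fold change was 0.00368 and its 95% interval ran from -0.144 to 0.151 (adjusted p = 0.992, edgeR). Of the exon length of PPP2CA, 27.7% overlaps a pair of unnamed genes on the same strand. These held 11 and 8 counts over the 6 libraries. By default HTSeq-count gives a read in exons of more than 1 gene to none of them, and the setting used is not stated, so the level of PPP2CA is uncertain and may be too low.

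PPP2CB (ENSG00000104695, chromosome 8, 30631973 to 30671830) had 89.9, 89.2 and 83.8 CPM with DMSO and 87.6, 88.8 and 81.5 CPM with AZD7762. The groups overlapped, with replicate 3 again the lowest of each, and the log2 fold change was -0.028 (95% interval -0.16 to 0.104, adjusted p = 0.918, edgeR).

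PPP2R2A, the ubiquitous B55α subunit, was the only B55 gene among the 10. PPP2R2A (ENSG00000221914, chromosome 8, 26149024 to 26230196) had 116, 119 and 109 CPM with DMSO and 120.2, 126 and 115 CPM with AZD7762. The lowest AZD7762 sample lay below the 2 higher DMSO samples. The means of 115 ± 5.13 and 120.3 ± 5.70 CPM (SD, n = 3) gave a log2 fold change of 0.0656 (95% interval -0.0681 to 0.199, adjusted p = 0.787, edgeR). It was 0.0245 without AZD7762 replicate 2, the highest sample, and 0.0333 without DMSO replicate 3, the lowest.

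The 5 B56 genes encode the subunits B56α (PPP2R5A), B56β (PPP2R5B), B56γ (PPP2R5C), B56δ (PPP2R5D) and B56ε (PPP2R5E), which share a conserved core and differ mainly at their ends. In 5 of 5 the groups overlapped, and their log2 fold changes ran from -0.04 to 0.0528 with adjusted p of 0.844 or more in edgeR's test. PPP2R5A (ENSG00000066027, chromosome 1, 212458752 to 212535195) had 31.5, 29.9 and 29.1 CPM with DMSO against 29.9, 29.6 and 28.6 CPM under AZD7762. Its log2 fold change of -0.04 had a 95% interval from -0.189 to 0.109, and was -0.0199 without DMSO replicate 1, the highest sample. The highest sample was a DMSO sample and the lowest an AZD7762 sample, but the others interleaved.

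PPP2R5B (ENSG00000068971, chromosome 11, 64685025 to 64701947) had 42.6, 38.7 and 41.8 CPM with DMSO and 41.6, 36.2 and 43.1 CPM with AZD7762. Replicate 2 was the low sample of each group, and without AZD7762 replicate 2 the log2 fold change of -0.0266 (95% interval -0.196 to 0.143) was 0.038. PPP2R5C (ENSG00000078304, chromosome 14, 102228046 to 102394326) had 155, 158 and 147 CPM with DMSO and 156, 148 and 147 CPM with AZD7762. This gene had the most counts of the family, its samples interleaved, and its log2 fold change was -0.0281 (95% interval -0.153 to 0.0968). A processed pseudogene, PPP2R5CP, held 1.26% as many counts as PPP2R5C.

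PPP2R5D (ENSG00000112640, chromosome 6, 42952291 to 42980080) had 56.2, 57.4 and 51.7 CPM with DMSO and 57.3, 58.7 and 55.6 CPM with AZD7762. DMSO replicate 3 was the low sample, and the log2 fold change of 0.0528 (95% interval -0.085 to 0.19) became 0.0128 without it. Of the exon length of PPP2R5D, 31.5% overlaps MEA1 on the opposite strand. MEA1 had more counts (174% of those of PPP2R5D), and since it is not stated whether counting used the strand, the level of PPP2R5D is uncertain. PPP2R5E (ENSG00000154001, chromosome 14, 63838082 to 64010095) had 109, 106 and 103 CPM with DMSO and 104, 109 and 102 CPM with AZD7762, for a log2 fold change of -0.0133 (95% interval -0.137 to 0.111).

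For 9 of the 10 genes, the difference between the group means was smaller than the larger of the 2 group SDs. The coefficient of variation within a group ran from 2.29% to 9.04% over the 10 genes. DMSO replicate 3 was below the gene's own 6-sample mean (on log2 CPM) for 9 of 10 genes, and AZD7762 replicate 3 for 8 of 10. By contrast, replicate 1 was above it for 8 of 10 in both groups. For the 7 genes whose transcript has a GC content of at most 50%, the mean deviation in replicate 3 was -0.0592 with DMSO and -0.0619 with AZD7762 on the log2 scale. The other 3 genes (PPP2R1A, PPP2R5B and PPP2R5D) had mean deviations of -0.0263 and 0.0254 in these libraries. These 3 did not move together, with -0.00356, 0.0421 and -0.1175 in DMSO replicate 3. In AZD7762 replicate 3 they had 0.00241, 0.0864 and -0.0127, in the same order of genes. The part of GC content in this pattern was not tested.

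Levels were compared between genes as TPM, which are counts divided by gene length and scaled to the same total in each sample. The length was the union of all annotated exons. TPM were not compared between the groups, because the sum that TPM are scaled to was higher with AZD7762 (242458 to 247781 counts per kilobase, with libraries brought to the same total count) than with DMSO (235954 to 238534). PPP2CA had the highest level of the 10, with a mean of 196 TPM (range 179 to 210 over the 6 samples), and 95.1% of the genes tested had a lower mean. PPP2R1A followed with 147 TPM (range 140 to 155), and PPP2CB with 80.0 TPM (range 73.8 to 85.0). These 3 core subunits did not overlap in range, and each was above all 6 regulatory genes of the set in all samples.

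The 6 regulatory genes lay closer together, between 31.4 and 61.6 TPM. PPP2R5D was the highest with 61.6 TPM (range 58.4 to 64.8), above PPP2R2A with 55.7 TPM (range 53.2 to 58.2). PPP2R5B (50.3 TPM), PPP2R5E (47.7 TPM) and PPP2R5C (43.9 TPM) came next, and in each step of this order from PPP2R2A to PPP2R1B (40.1 TPM) the ranges of neighbours over the samples overlapped. Within samples, however, PPP2R2A was above PPP2R5B and PPP2R5E above PPP2R5C in 6 of 6, PPP2R5C was above PPP2R1B in 5 of 6 and PPP2R5B above PPP2R5E in 4 of 6. PPP2R5A was the lowest with 31.4 TPM (range 29.6 to 34.1), below all the others in all 6 samples, and still above 66.1% of the genes tested. The 5 B56 genes thus spanned 31.4 to 61.6 TPM with this length, but 28.3 to 101 TPM with the longest transcript and 23.1 to 82.6 TPM with the canonical one.

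**Figure D2:**
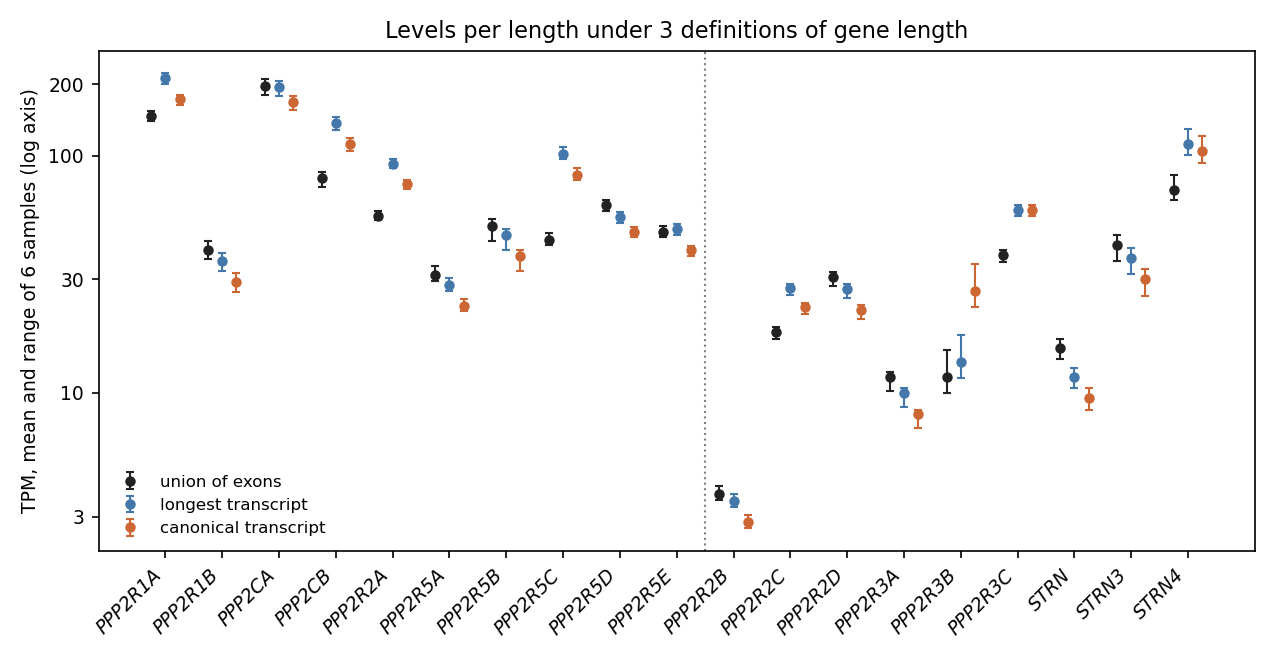
Mean TPM (log axis) over the 6 samples, with the lowest and highest sample as bars, for the 10 PP2A subunit genes (left of the dotted line) and 9 other regulatory subunit genes (right), with gene length taken as the union of exons (black), the longest transcript (blue) or the canonical transcript (orange). PPP2R5C moved from 43.9 TPM to 101 and 82.6 TPM, whereas PPP2R5A was the lowest of the 10 under each length.

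The order depended on what was taken as the length of a gene. PPP2R5C has 14378 bases of exons in the union of its many isoforms and 4630 bases in its canonical transcript. With the canonical transcript, a length added after the data had been seen, PPP2R5C had 82.6 TPM (range 78.6 to 88.5) in place of 43.9 and was the highest of the B56 genes, above PPP2R5D with 47.6 TPM (range 45.3 to 50.1). The longest transcript gave PPP2R5C 101 TPM and PPP2R5D 54.8 TPM. The top of the order changed as well, since PPP2R1A had 173 TPM and PPP2CA 169 TPM with canonical transcripts, and 212 and 194 TPM with the longest, with overlapping ranges in both cases. PPP2CB at rank 3, PPP2R2A at rank 5, PPP2R5E at rank 7, PPP2R1B at rank 9 and PPP2R5A at rank 10 kept their place under all 3 lengths. Gene counts do not show which isoforms were present, so that the leading B56 gene cannot be named from these data.

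Within each class, the makeup varied by a few percentage points between samples. PPP2CA gave between 70.3% and 71.6% of the summed TPM of the 2 catalytic genes with the union length, and between 59.1% and 60.7% with the canonical transcript. PPP2R1A gave between 76.9% and 80.8% of the scaffold TPM, and between 84.2% and 87.1% with the canonical transcript. The catalytic to scaffold ratio of TPM ran from 1.38 to 1.62 over the 6 samples.

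Of the summed B56 TPM, PPP2R5D gave 25.7% ± 0.912 with DMSO and 26.8% ± 0.826 in the AZD7762 group (SD, n = 3 each). PPP2R5B gave 21.6% and 21.2%, PPP2R5E 20.4% and 20.2%, PPP2R5C 18.8% and 18.5%, and PPP2R5A 13.5% and 13.2%, in the same order of groups. The largest of the 7 differences in share tested was that of PPP2R5D, 1.08 percentage points, for which the exact permutation test (two-sided) gave p = 0.3. It was 0.607 points without AZD7762 replicate 2 and 0.669 without DMSO replicate 3, and in both cases the difference for PPP2R1A was then larger (1.82 points in the former). The smallest of the 7 exact permutation p was 0.2 (PPP2R5A), and after Benjamini-Hochberg adjustment over the 7 shares the lowest was 0.7. With 3 samples against 3, this exact test cannot give a p below 0.1.

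**Figure D3:**
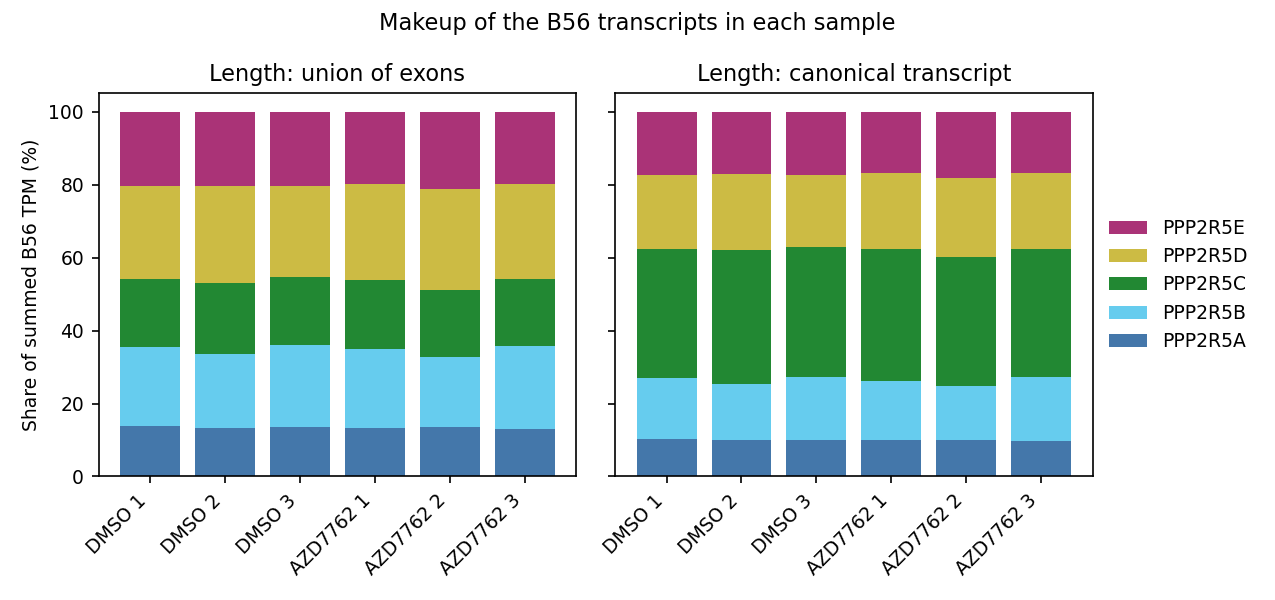
Share of the summed B56 TPM (percent) given by each of the 5 B56 genes in each sample, with the union of exons (left) or the canonical transcript (right) as gene length. The bars of the 6 samples are alike within a panel, and PPP2R5C takes between 18.2% and 19.3% on the left and between 35.2% and 36.8% on the right.

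The other regulatory families were measured for comparison, from a list of 9 genes (3 B55, 3 PR72 family and 3 striatin genes), all of which passed the filter on low counts. With PPP2R2A and the B56 genes this made 15 regulatory genes. B56 genes gave between 42.7% and 45.3% of their summed TPM, B55 genes between 19.5% and 21.0%, striatins between 22.8% and 25.9% and the PR72 family between 11.3% and 11.9%. With canonical transcripts the share of B56 genes was between 37.4% and 40.4%, and B56 still had the largest sum. The sums cover 5 B56, 4 B55, 3 striatin and 3 PR72 family genes, so they do not rank the families per gene. The B56 sum includes PPP2R5D, whose level is uncertain. The striatin and PR72 family sums have a like limit. Of the exon length of STRN, 18.2% overlaps an unnamed gene on the same strand. For PPP2R3C of the PR72 family, 15.5% overlaps genes on the opposite strand. The highest single gene was STRN4, a striatin, with 71.6 TPM (range 65.0 to 82.6), and the lowest was PPP2R2B, a B55 gene known from neurons, with 3.72 TPM (range 3.52 to 4.04). Among B55 genes, PPP2R2A was above PPP2R2D (30.8 TPM), PPP2R2C (17.9 TPM) and PPP2R2B in all samples.

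None of these 9 genes was called between the groups by edgeR, against 0.708% of all genes, or by DESeq2, against 162 of 21152. In edgeR's test 1 of 9 (STRN3) had an unadjusted p under 0.05, against 9.68% of all genes. The median log2 fold change of the 9 was 0.00863, beside 0.00757 over all genes tested. STRN3, a scaffold of striatin complexes that bind kinases, had the largest size, with 52.2, 53.8 and 51.6 CPM with DMSO and 44.7, 50.0 and 47.8 CPM with AZD7762. The AZD7762 samples lay below the DMSO samples, and this was the 1 gene of the 9 whose groups did not overlap, against 15.0% of all genes. The log2 fold change of -0.148 (95% interval -0.288 to -0.00769) had an adjusted p of 0.483 in edgeR's test.

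Genes that assemble or inhibit PP2A did not pass the test either. Of 12, 0 were called by edgeR, against 0.708% of all genes, and 0 by DESeq2, against 162 of 21152. Their median log2 fold change was 0.0412, beside 0.00757 over all genes tested. An unadjusted p under 0.05 in edgeR's test was found for 2 of 12, PTPA and PPME1, against 9.68% of all genes. The groups did not overlap for 3 of 12, against 15.0% of all genes. These were PPME1, which removes a methyl group from the catalytic subunit (log2 fold change 0.149), LCMT1, which adds it (0.0852), and PABIR1, an inhibitor of the B55 complex (-0.0777), with adjusted p of 0.463 or more in edgeR's test. With the union length, the highest level of the 12 was that of SET, an inhibitor of PP2A, with 387 TPM, and the lowest was that of CIP2A, an inhibitor found in many tumours, with 32.7 TPM. PTPA, which activates the catalytic subunit, had the largest size, with 175, 151 and 157 CPM with DMSO and 194, 176 and 171 CPM with AZD7762. The groups overlapped, and its log2 fold change was 0.164 (95% interval 0.00966 to 0.318, adjusted p = 0.481, edgeR). ENSA and ARPP19, small proteins that inhibit the B55 complex when phosphorylated, had 237 and 356 TPM. With canonical transcripts ENSA had 542 TPM (range 525 to 561) and was above SET with 476 TPM (range 450 to 520).

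Among the catalytic subunits of 9 other phosphatase genes, 0 were called by edgeR, against 0.708% of all genes. DESeq2 also called 0, against 162 of 21152 genes. In edgeR's test 1 of 9 (PPP1CA) had an unadjusted p under 0.05, against 9.68% of all genes. The median log2 fold change of the 9 was 0.0305, beside 0.00757 over all genes tested. With the union length, PPP1CB of protein phosphatase 1 had the highest level of these, 258 TPM (range 235 to 279), and PPP3CC of calcineurin the lowest, 14.2 TPM. Of the 11 catalytic genes, PPP2CA had rank 3, after PPP1CB and PPP1CA (232 TPM), and rank 5 with canonical transcripts. PPP2CB had rank 8 and rank 7. These ranks are uncertain, since the level of PPP2CA may be too low. Other genes also overlap part of the exon length of PPP1CA (18.0%, opposite strand) and PPP1CB (10.8%, same strand). With canonical transcripts PPP1CA was first with 403 TPM and PPP1CB had rank 3 with 235 TPM. PPP1CA had the largest log2 fold change of the 9, 0.144 (95% interval 0.00754 to 0.281, adjusted p = 0.483, edgeR).

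**Figure D4:**
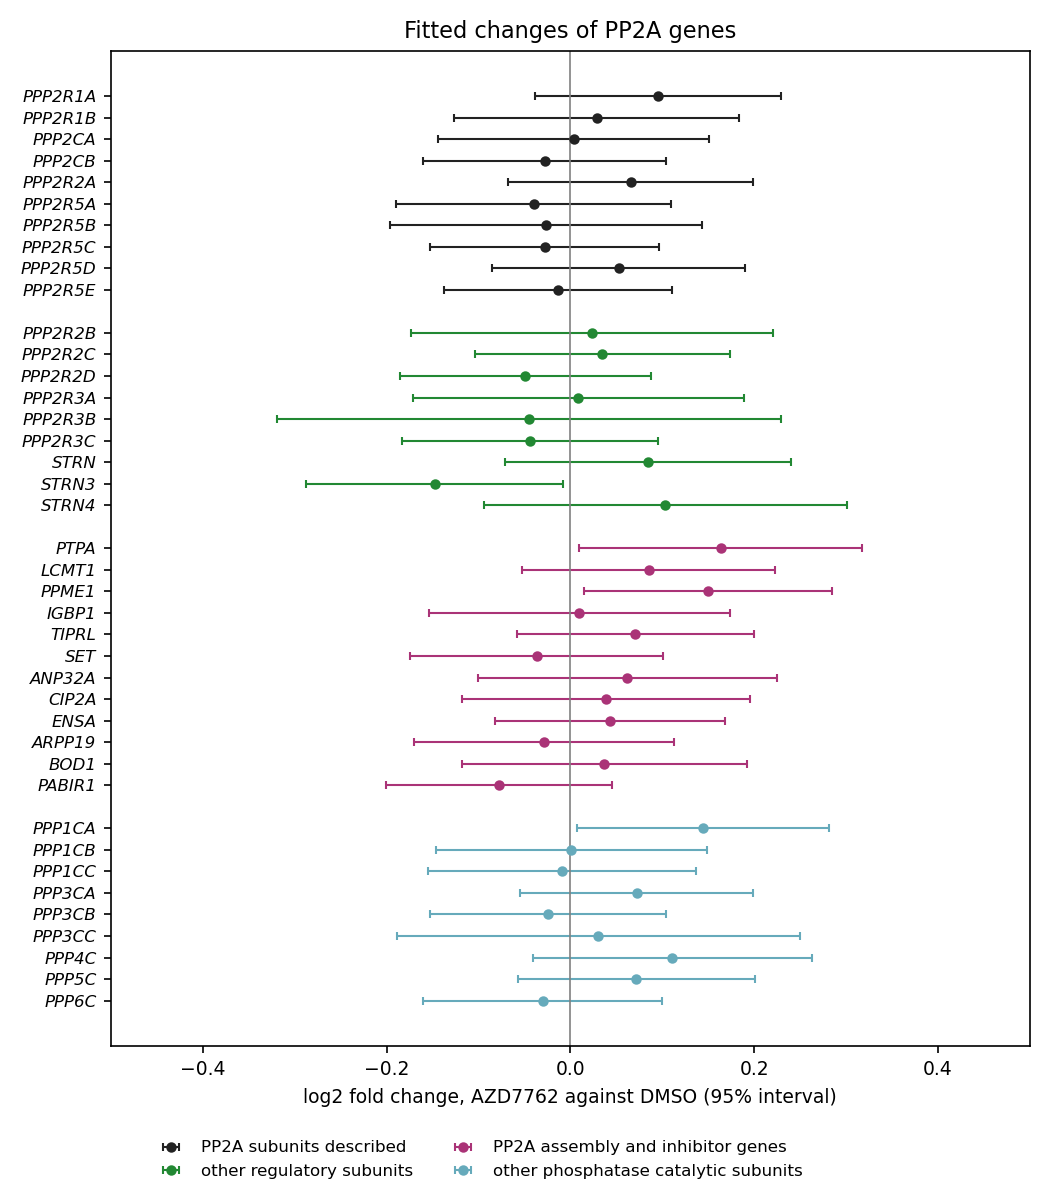
Log2 fold change of AZD7762 against DMSO with its 95% interval (edgeR) for the 10 PP2A subunit genes (black), 9 other regulatory subunit genes (green), 12 assembly and inhibitor genes (purple) and 9 catalytic subunits of other phosphatases (blue). The intervals of the 10 subunits all cross 0 and stay within 0.23 of it. None of the 40 genes passed the test after adjustment over all genes, against 0.708% of all genes tested.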

How the data were processed

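RNA-seq of 6 EndoC-βH1 samples was used, grouped by the treatment in their titles. Per the labels and methods, the authors trimmed reads with cutadapt 1.18, aligned these to GRCh37 and obtained gene counts with HTSeq-count. Raw counts were deposited, 1 file per sample. The aligner, the annotation release and the strand setting are not given in the sources used here, and either of 2 library kits, 1 of them stranded, was used.

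Symbols and lengths came from GENCODE (GRCh37), which matched 58646 identifiers. Counts were analysed with edgeR 4.0.16 in R 4.3.3 (filterByExpr, TMM, quasi-likelihood test with a term for treatment, Benjamini-Hochberg over 17649 genes, threshold 0.05, two-sided). DESeq2 1.42.0 was an alternative. Standard errors are the absolute log2 fold change over the root of F, and 95% intervals use the t distribution. Between replicates, counts differed by more than sampling noise (chi-square per gene 4.92 to 9.53). The procedure was tested on simulated data.

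The 10 genes and the lists were chosen with earlier results of these data known. Beyond the 10 genes, the rule names, per list, called genes, the highest and lowest level and the largest change. The B55 genes are named as a group. IAPP, STRN, PPP2R3C, ENSA, ARPP19, PPME1, LCMT1 and PABIR1 were named outside this rule, after their values were seen. The same holds for those markers of other cell types that passed the filter. In these libraries 3 counts correspond to at most 0.146 CPM, which covers counting error only.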

Additional observations from a re-analysis of the deposited data

How the results depend on the processing

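The 10 PP2A subunits had 0 calls under each of the 13 alternatives to the fit, and their adjusted p stayed at 0.307 or above. Over all genes, 125 calls became 330 without a filter on low counts, 378 with the replicate number as a term (replicate block) and 242 after correction for GC content and gene length, and between 77 (without AZD7762 replicate 1) and 168 (without DMSO replicate 3) with 1 sample left out. The cause was not tested. Whether the numbers pair the samples is not given by the labels. Same-numbered samples correlated at 0.0533, 0.124 and 0.21, not all above the 0.1 set for a pairing, and AZD7762 replicates 1 and 3 correlated best with the DMSO sample of their number but AZD7762 replicate 2 with DMSO replicate 1. Fold changes near 0 changed sign. With total counts only, PPP2R1B had a log2 fold change of -0.00681 and PPP2CA -0.0315, and with a minimum of 10 counts per sample PPP2CA had -0.000971. PPP2R2A had 0.0303 and PPP2R5A -0.075 with total counts only, which moved the median of all genes by -0.0351. After the correction for GC content and length, PPP2R5C had 0.0151, PPP2R5E 0.0394, PPP2R2A 0.119 and PPP2R5B -0.108. With 1 sample left out, the range was -0.0435 to 0.0564 for PPP2CA, -0.0583 to 0.0101 for PPP2CB, -0.0542 to 0.0627 for PPP2R1B, -0.0755 to 0.038 for PPP2R5B, -0.045 to 0.00911 for PPP2R5E, 0.0245 to 0.0999 for PPP2R2A, -0.062 to -0.0199 for PPP2R5A, -0.0615 to -0.0118 for PPP2R5C, 0.0128 to 0.0759 for PPP2R5D and 0.0448 to 0.12 for PPP2R1A. The difference in share ran from -0.173 to 1.82 percentage points for PPP2R1A, -1.16 to 0.643 for PPP2R5B, 0.607 to 1.57 for PPP2R5D and -0.561 to 0.135 for PPP2R5E. In the order of levels, 5 of 10 genes kept their rank with the longest transcript and 5 with the canonical transcript, and 10 of 10 with each sample left out.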
